A study of Mus musculus with 6 samples.

Results

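The genes described here are those of cholesterol and fatty acid synthesis and of the SREBP system that controls them. They were chosen by name, 33 genes in all, when earlier results of these data were known, though the rule itself uses no measured value. With 1 probe set per gene, the one with the highest mean over the 6 arrays, 32 of the 33 were found among 18193 genes; Acat2 (cytosolic acetoacetyl-CoA thiolase) was not analysed here. The 32 were 17 enzymes of sterol synthesis, 8 enzymes of fatty acid synthesis, and 7 regulators and sterol transporters. RNA of mouse embryonic fibroblasts, connective tissue cells cultured from embryos, had been hybridised to Affymetrix arrays. Wild-type cells gave 3 arrays, and cells labelled abl/arg knockout gave the other 3. The knockout cells should lack both tyrosine kinases of the Abl family, which are encoded by Abl1 (c-Abl) and Abl2 (Arg). Both groups were of the C57BL/6 strain, from embryos of 14 days of gestation with the sexes pooled, and were grown in medium with fetal bovine serum, a source of cholesterol. The labels do not say whether the knockout cells were 1 clone or line, which parts of the genes were deleted, or whether replicate arrays stand for separate cultures. The p-values therefore reflect the spread among 3 arrays a group, which may be only technical. The comparison asks how expression changes when both Abl kinases are missing.

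Animal cells build cholesterol from acetyl-CoA through mevalonate, isoprenoid diphosphates, squalene and lanosterol, and build fatty acids from the same acetyl-CoA. When sterols are scarce in the endoplasmic reticulum, the escort protein SCAP carries the SREBP transcription factors to the Golgi, where proteases release their active part. INSIG proteins hold SCAP back when sterols are plentiful. SREBP2 acts mainly on sterol genes and SREBP1 mainly on fatty acid genes, often together with the CCAAT-binding factor NF-Y.

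The labels and arrays set some limits. The brightest Abl1 probe set had mean signals of 185 ± 4.46 and 169.8 ± 8.22 in wild type and knockout, and the brightest Abl2 probe set 256 ± 9.30 and 254 ± 11.9 (SD, n = 3 each; limma adjusted p = 0.0939 and 0.879 over all probe sets with 1 gene). Neither passed, and both other Abl1 probe sets, dim ones, rose by 0.21 and 0.28 on the log2 scale, to means of 10.6 ± 0.539 and 22.9 ± 2.34 in knockout (adjusted p = 0.000799 and 0.00388). Where their probes lie relative to the deletions was not analysed here, so they do not check the labels, and "knockout" means the arrays so labelled. Median signals ran from 13.4 to 14.7 over the 6 arrays. Of 14 fibroblast markers 9 rose and 3 fell, and some went from bright to near the floor or back. Mean signals of the growth factor receptor gene Pdgfra were 9.99 in wild type and 1789 in knockout, those of the collagen gene Col1a2 were 2284 and 9.71, and those of Col3a1 were 1934 and 14.9. Thy1, Fap and Lum were near the floor in both groups (means of 8.22 or less), although Lum passed as a rise. The part of these marker changes in the results for lipid genes was not tested. Markers of other cell types were dim. Summed over their genes, signals in wild type and knockout were 81.2 to 91.7 and 69.1 to 77.8 for hepatocytes, 61.5 to 62.9 and 43.8 to 52.4 for epithelium, 34.7 to 42.4 and 32.2 to 37.6 for endothelium, and 66.9 to 68.5 and 80.5 to 87.8 for leukocytes. For the beta-actin control, which tracks RNA integrity, the 3' probe set exceeded the 5' one by 0.47 ± 0.03 (log2) in wild type and by 0.36 ± 0.01 in knockout (SD, n = 3; exact permutation p = 0.1, the smallest possible with 3 against 3). For the Gapdh control, 3' minus 5' was -0.15 ± 0.04 in wild type and -0.17 ± 0.04 in knockout (exact permutation p = 0.6).

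Of the 6 enzymes measured from HMG-CoA synthase to farnesyl diphosphate 5 fell, and of the 8 beyond lanosterol 5 fell and 2 rose. The acyl-CoA desaturase Scd1 fell most of all members, and Fasn, Fads2, Insig1 and Abca1 rose. Of the 32 genes, 10 rose and 17 fell at a limma adjusted p under 0.05, tested over all genes on log2(signal + 16). Of all 18193 genes, 24.2% rose and 35.5% fell, 59.7% in all. None of the 32 was dim, and among the 11569 genes left when dim ones were removed 82.3% passed, against 84.4% of the members. A pass alone is therefore near the background. Both a pass and a difference of 2-fold or more were seen for 13 members, against 15.8% of all genes. Of these members 9 fell, against 8.77% of all genes. Signals of the groups did not overlap for 26 of the 32 members, against 64.7% of all genes. These shares of all genes include 6624 dim genes. The offset of 16 leaves dim genes little room for a 2-fold difference, so the 2-fold shares are too low a background for these members. Shares without dim genes were not analysed here. The median difference was -0.59 in the sterol branch, -0.02 in the fatty acid branch and 0.22 among regulators and transporters, with -0.03 for all genes. Under poly-A spike scaling, described next, these medians were -0.13, 0.44 and 0.67, and under hybridization spike scaling -0.84, -0.28 and -0.04.

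Scaling sets which of these directions are firm. Spike controls are foreign RNAs added in known amounts. The mean log2 signal of the poly-A spikes, added to the RNA, was lower in the knockout arrays by a difference of -0.47, and that of the hybridization spikes higher by 0.26 (exact permutation p = 0.1 for each). Scaling on the poly-A spikes moved the median of all genes by 0.139 and raised the share of rises among calls from 40.6% to 76.5%; scaling on the hybridization spikes lowered it to 22.0%. A spike reference moves all genes of an array together, and p-values leave out its own uncertainty. In all, 16 of the 32 members kept their direction and their side of the threshold under every alternative that could be run for them of 19. These were Pmvk, Mvd, Idi1, Fdps, Lss, Tm7sf2, Nsdhl, Dhcr7, Scd1, Srebf2 and Stard4, which fell, and Hsd17b7, Fasn, Fads2, Insig1 and Abca1, which rose.

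**Figure D1:**
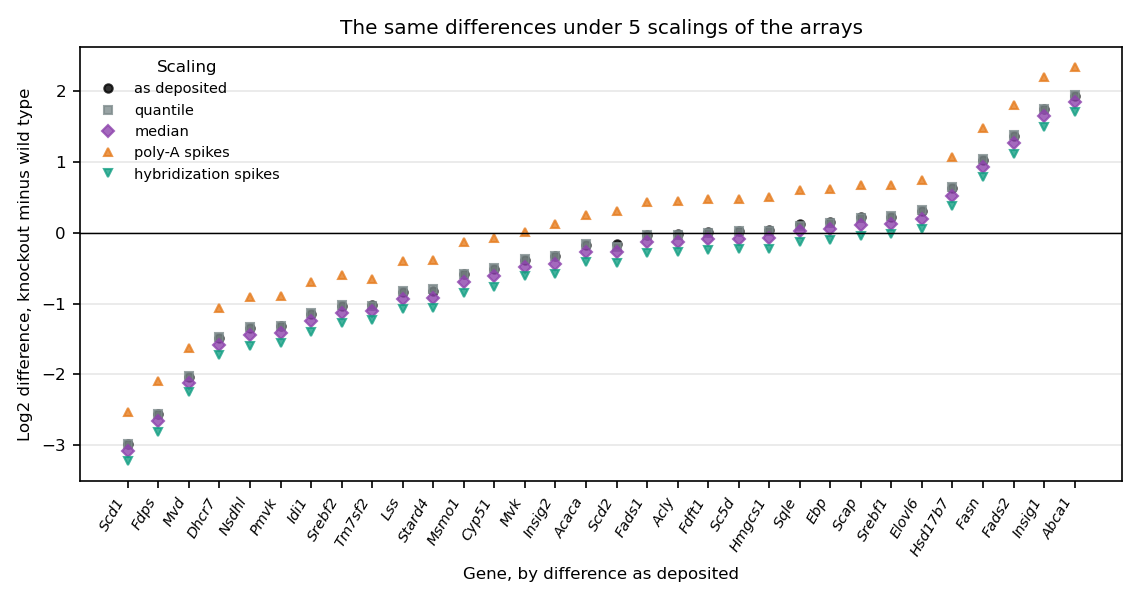
Log2 difference (knockout minus wild type) of each of the 32 measured genes on the vertical axis, ordered by its value as deposited, with a symbol for each of 5 scalings of the arrays. Scd1 lies between -3.22 and -2.54 and Abca1 between 1.71 and 2.35 under these scalings, whereas genes near 0 such as Fdft1 (0.01 as deposited) cross the line.

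The mevalonate arm was lower except at its entry. Hmgcs1, the cytosolic HMG-CoA synthase, had signals of 884, 965 and 1011 in wild type and 1034, 958 and 939 in knockout, which overlapped (log2 difference 0.04, 95% interval -0.08 to 0.15; limma adjusted p = 0.596). Its probe sets disagreed. Of the other 4, 2 fell (591 ± 70.1 to 467 ± 62.4, and 810.3 ± 61.1 to 673 ± 101, SD, n = 3 each) and 2 rose (161 ± 8.59 to 185 ± 11.2, and 3.34 to 4.38 near the floor), so its direction rests on the probe set. Mvk, mevalonate kinase, went from 106, 108 and 115 to 78.2, 77.1 and 84.4, without overlap, and its difference of -0.39 was 0.02 under poly-A spike scaling (limma adjusted p = 0.887).

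The enzymes of the steps that follow were lower. Pmvk, phosphomevalonate kinase, had signals of 323, 319.6 and 332 in wild type and 126, 113 and 122 in knockout, a 2.70-fold difference of means. Mvd, the decarboxylase that makes isopentenyl diphosphate, had 231, 245 and 296 against 48.1, 48.9 and 54.9, a log2 difference of -2.03 ± 0.09 (SE; limma adjusted p = 4.84e-10). All knockout arrays lay far below all wild-type arrays for both genes. The other probe set of Mvd fell too, from 214 ± 25.3 to 34.1 ± 2.23 (SD, n = 3 each).

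Idi1, the isomerase that turns isopentenyl into dimethylallyl diphosphate, had 515, 539 and 581 in wild type and 246, 239.7 and 226 in knockout (-1.15 ± 0.05, SE; limma adjusted p = 1.09e-09). Fdps, farnesyl diphosphate synthase, which supplies both squalene and the lipids attached to small GTPases, had the largest fall of the 17 sterol enzymes with 1 probe set per gene. Its signals were 2146, 2137 and 2316 in wild type and 398, 339.7 and 346 in knockout, a 6.09-fold difference (-2.56 ± 0.06, SE; limma adjusted p = 2.02e-12). With probe sets averaged it was -1.28, since the other Fdps probe set was at the floor in both groups (2.08 and 1.99).

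**Figure D2:**
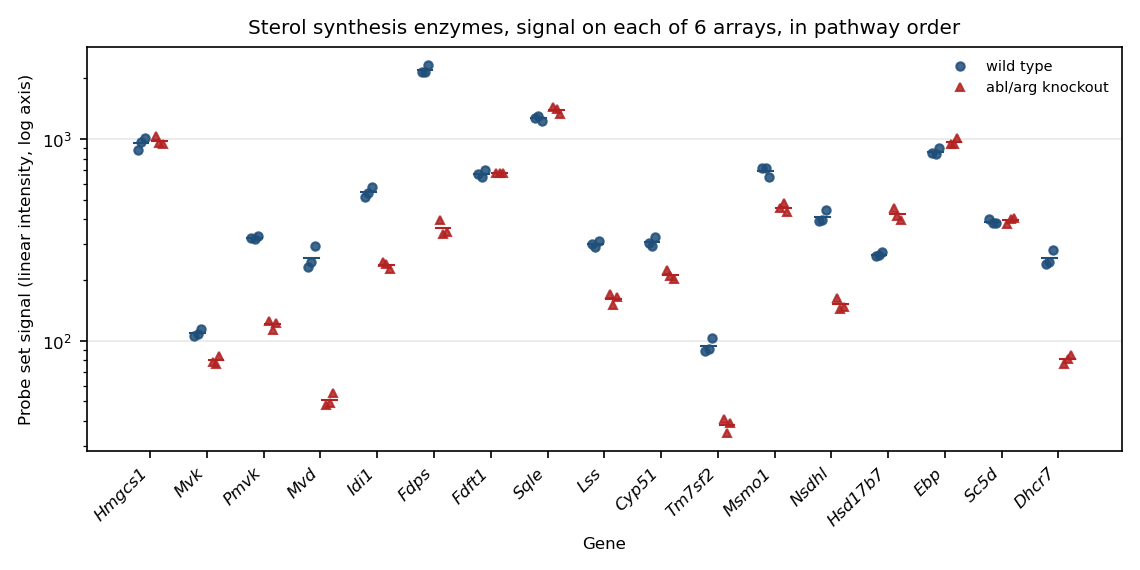
Probe set signal (linear intensity on a log axis) of the 17 sterol synthesis enzymes in pathway order on each of the 3 wild-type (circles) and 3 knockout (triangles) arrays, with dashes at group means (n = 3). The groups are well apart from Pmvk to Fdps and lie together at Hmgcs1, Fdft1 and Sc5d; heights of different genes are not comparable.

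The squalene steps did not move together. Fdft1, squalene synthase, which commits farnesyl diphosphate to sterols, had 667, 649 and 703 in wild type and 675, 679 and 680.0 in knockout, fully overlapping (0.01, 95% interval -0.08 to 0.10). Sqle, squalene epoxidase, had 1270.1, 1303 and 1232 against 1443, 1407 and 1326, a small rise of 0.13 (limma adjusted p = 0.0173). That call is not firm: the adjusted p was 0.0585 without wild-type replicate 3, 0.0691 without knockout replicate 1 and 0.0547 without knockout replicate 2, and it was -0.13 under hybridization spike scaling. Lss, lanosterol synthase, which closes the sterol rings, fell from 301, 291 and 312 to 171, 149.8 and 165 (-0.84 ± 0.06, SE; limma adjusted p = 4.15e-08). Both other Lss probe sets fell as well, by 0.63 and 0.59 on the log2 scale.

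Beyond lanosterol, 5 of 8 enzymes fell and 2 rose, where 35.5% and 24.2% of all genes did. Of the 11569 genes that are not dim, 5417 fell and 4110 rose. The delta-7 reductase Dhcr7, which makes cholesterol from 7-dehydrocholesterol, had 241, 247 and 281 in wild type and 76.8, 81.4 and 85.2 in knockout, 3.16-fold apart (-1.48 ± 0.07, SE; limma adjusted p = 9.21e-10). Nsdhl, which takes part in removing the methyl groups at carbon C4, had 391, 398 and 444 against 163, 144 and 148 (-1.35 ± 0.06, SE). Tm7sf2, a delta-14 sterol reductase, had 89.0, 91.1 and 104 against 41.1, 35.1 and 39.0 (-1.02 ± 0.08, SE). The groups were fully apart for all 3.

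Cyp51, the lanosterol demethylase, fell by 0.51 on the log2 scale. Its next brightest probe set was level (78.0 ± 9.27 to 74.0 ± 4.63, SD, n = 3 each, limma adjusted p = 0.566), and its dimmest fell by 0.38. Msmo1, the methyl sterol oxidase, fell by 0.59. Under poly-A spike scaling Cyp51 and Msmo1 were at -0.07 and -0.13 and neither passed (limma adjusted p = 0.517 and 0.198). Hsd17b7, a keto-reductase of the same demethylation, went the other way, from 263, 265 and 274 to 455, 417 and 395 (0.63 ± 0.05, SE; limma adjusted p = 3.77e-07). Of its other 3 probe sets 2 rose by 0.46 and 0.39, and 1 near the floor fell from 7.24 to 4.84. Ebp, the sterol isomerase, had 850.4, 846 and 899 against 943, 941 and 1009 (0.15), a rise lost with arrays centred on their median (0.05; adjusted p = 0.327). Sc5d, the sterol desaturase, had overlapping signals of 382 to 400.3 and 377 to 406 (0.02, 95% interval -0.08 to 0.12), although both of its dimmer probe sets rose, by 0.57 and 0.56. Among the 17 sterol enzymes, 11 fell, 7 of them at least 2-fold, and 3 rose. Of all genes, 35.5% fell, 8.77% at least 2-fold, and 24.2% rose. Among the 11569 genes left without dim ones, 5417 fell and 4110 rose. Under poly-A spike scaling 8 of the sterol enzymes fell and 6 rose, and under hybridization spike scaling 14 fell and 1 rose. Proliferation genes moved with the sterol enzymes: 13 of 14 fell, and their summed signal was 25360 to 26180 in wild type and 8648 to 9804 in knockout. Their part in the fall of sterol enzymes was not tested. In cultures, fewer cells of a kind and less RNA per cell cannot be told apart.

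Most sterol enzymes with a promoter entry carried a CCAAT box, whether their signals rose, fell or did not pass. Promoter windows of 300 bases, 250 before to 50 after each start site, came from RefSeq (assembly GRCm38.p6) and held 26 of the 33 genes, with 34 windows. They were searched on both strands for CCAAT, the box of NF-Y, for CACGTG, the E-box, and for TCACNCCAC, a core of the sterol regulatory element. No matches of different motifs overlapped. Of 15 listed sterol enzymes with a window, 14 held at least 1 CCAAT box, against 41.1% of 27025 genes in the table; Acat2, which has no value here, held none. Of the 14, 10 fell, 2 rose and 2 did not pass. Dhcr7 has 3 windows, and the box is in 1 of them. The box was in 2 of 5 fatty acid genes and 4 of 6 regulators and transporters. The E-box was in 3 of the 14 measured sterol enzymes, 0 of the 5 fatty acid genes and 3 of the 6 regulators and transporters, against 8.09% of all genes. The sterol element core was found in Hmgcs1 alone of the members, against 1.44% of all genes; many sterol elements differ from these letters. A match is no proof of a site. The 250 bases before the start are printed for genes that did not pass (Hmgcs1), fell (Idi1, Mvd, Nsdhl) or rose (Hsd17b7, Insig1), to set their boxes side by side, 5′ to 3′ on the strand of the gene, with matches in capitals. Windows are chr13:119690101-119690350 (+) for Hmgcs1, chr13:8885356-8885605 (+) for Idi1, chr8:122443423-122443672 (-) for Mvd, chrX:72918271-72918520 (+) for Nsdhl, chr1:169969206-169969455 (-) for Hsd17b7 and chr5:28071162-28071411 (+) for Insig1.
Hmgcs1: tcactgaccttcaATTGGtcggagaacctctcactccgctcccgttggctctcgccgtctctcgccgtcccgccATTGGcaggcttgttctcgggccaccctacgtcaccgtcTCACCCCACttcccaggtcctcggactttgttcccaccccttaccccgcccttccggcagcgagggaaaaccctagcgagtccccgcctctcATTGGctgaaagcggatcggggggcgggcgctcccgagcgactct
Idi1: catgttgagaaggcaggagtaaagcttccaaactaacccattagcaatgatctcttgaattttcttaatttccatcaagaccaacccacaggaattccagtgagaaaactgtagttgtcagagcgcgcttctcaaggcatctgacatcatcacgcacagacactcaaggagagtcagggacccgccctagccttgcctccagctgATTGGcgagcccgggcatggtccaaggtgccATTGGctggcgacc
Mvd: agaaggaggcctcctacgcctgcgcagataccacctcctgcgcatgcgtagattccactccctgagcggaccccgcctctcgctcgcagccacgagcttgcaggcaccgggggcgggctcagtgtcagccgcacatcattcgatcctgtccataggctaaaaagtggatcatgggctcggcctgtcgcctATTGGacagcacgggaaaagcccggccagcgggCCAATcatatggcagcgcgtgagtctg
Nsdhl: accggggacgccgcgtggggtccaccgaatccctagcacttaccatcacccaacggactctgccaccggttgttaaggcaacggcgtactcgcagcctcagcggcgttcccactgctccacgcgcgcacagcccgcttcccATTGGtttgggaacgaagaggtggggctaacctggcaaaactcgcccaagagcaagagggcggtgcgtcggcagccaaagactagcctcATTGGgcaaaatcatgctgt
Hsd17b7: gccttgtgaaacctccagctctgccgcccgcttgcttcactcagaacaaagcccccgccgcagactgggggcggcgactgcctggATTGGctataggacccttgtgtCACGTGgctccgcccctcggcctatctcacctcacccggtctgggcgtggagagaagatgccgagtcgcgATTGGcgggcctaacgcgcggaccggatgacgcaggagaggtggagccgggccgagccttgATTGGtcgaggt
Insig1: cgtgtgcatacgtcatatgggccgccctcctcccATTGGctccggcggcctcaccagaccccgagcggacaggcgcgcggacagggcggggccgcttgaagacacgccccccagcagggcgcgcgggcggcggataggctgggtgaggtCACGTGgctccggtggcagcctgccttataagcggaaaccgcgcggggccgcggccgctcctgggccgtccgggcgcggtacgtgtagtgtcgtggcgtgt

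In these sequences the CCAAT box reads CCAAT or, on the other strand, ATTGG. Mvd, Nsdhl and Idi1, which fell, and Hsd17b7, which rose, each carry a box that begins at most 27 bases before the start, at 27, 20, 14 and 12 bases. The sterol element core of Hmgcs1 begins 137 bases before the start, between CCAAT boxes at 176 and 45 bases. Hsd17b7 and Insig1 each carry an E-box, 143 and 101 bases before the start. Among all members with a window, the E-box was in 4 of 9 that rose and 1 of 13 that fell (Dhcr7). It was in 1 of 3 that did not pass (Sc5d). A link between the E-box and direction was not tested.

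The balance of fatty acid enzymes depended on scaling. As deposited, 3 of 8 rose, 3 fell and 2 did not pass, against 24.2% and 35.5% of all genes that rose and fell. Those shares include dim genes. Among the 11569 genes left without dim ones, 4110 rose and 5417 fell, so neither count stands out. On poly-A spikes 7 of the 8 enzymes rose and 1, Scd1, fell. On hybridization spikes 2 of them rose and 5 fell, and without wild-type replicate 2, 3 rose and 1 fell. Scd1, a stearoyl-CoA desaturase that makes monounsaturated fatty acids, had 937, 1002 and 1071 in wild type and 122, 96.8 and 122 in knockout, 8.83-fold apart (-2.98 ± 0.08, SE; limma adjusted p = 5.58e-12). Every knockout array was far below every wild-type array, and the other Scd1 probe set fell from 201 ± 22.7 to 11.5 ± 1.75 (SD, n = 3 each). Its neighbour and paralog Scd2 had 1891, 1938 and 1738 against 1742, 1633 and 1592, which overlapped. The Scd2 difference of -0.16 passed at an adjusted p of 0.0132 from limma, but it had 0.0673 without wild-type replicate 2, 0.0594 without knockout replicate 3, and a value of 0.31 under poly-A spike scaling; neither other Scd2 probe set passed.

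Fasn, the synthase that makes palmitate, rose from 181, 167 and 180.5 to 369.9, 381 and 378 (1.03 ± 0.05, SE; limma adjusted p = 1.13e-09). Fads2, the delta-6 desaturase of polyunsaturated fatty acids, rose from 186, 181 and 175 to 486, 513 and 478 (1.37 ± 0.05, SE; limma adjusted p = 6.78e-11), and both of its other probe sets rose too. All knockout arrays were above all wild-type arrays for both genes. Fads1, the delta-5 desaturase encoded beside it, had overlapping signals of 724 to 791 and 734 to 745 (-0.03, 95% interval -0.12 to 0.06). Its dimmer probe set rose from 28.6 ± 2.92 to 68.6 ± 13.9 (SD, n = 3 each), and with probe sets averaged Fads1 was at 0.44 (limma adjusted p = 8.68e-05).

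The early steps were nearly level as deposited, but not under every scaling. Acly, ATP citrate lyase, which makes cytosolic acetyl-CoA, had 907, 919 and 922 against 923, 902 and 889, overlapping (-0.02, 95% interval -0.10 to 0.06). Of its other 5 probe sets, 1 fell (714 ± 20.0 to 643 ± 5.33, SD, n = 3 each, limma adjusted p = 0.00725) and 4 did not pass. With arrays centred on their median, Acly passed at -0.12 (limma adjusted p = 0.0122). It also passed at 0.45 on poly-A spikes and at -0.28 on hybridization spikes (limma adjusted p = 2.37e-05 and 0.00221). With chromosomes centred it passed at -0.24 (limma adjusted p = 9.74e-05), so it has no firm direction. Acaca, acetyl-CoA carboxylase, had 163, 173 and 174 against 143, 148 and 156 (-0.17; limma adjusted p = 0.0178). That call had an adjusted p of 0.0643 without wild-type replicate 2, 0.0578 without wild-type replicate 3 and 0.0599 without knockout replicate 1, and the difference was 0.26 under poly-A spike scaling. Elovl6, which elongates palmitate, rose from 291, 299.6 and 324 to 392, 366 and 381 (0.30), with 0.05 under hybridization spike scaling (adjusted p = 0.485).

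Of 6 adipocyte markers measured, 3 rose, 1 fell and 2 did not pass. Fabp4, a fatty acid binding protein of adipocytes and other cells, rose from 15.1 ± 1.81 to 690.4 ± 8.88 (SD, n = 3 each). Pparg, the adipocyte transcription factor, rose from 9.30 ± 0.474 to 14.1 ± 2.06, and Lpl, lipoprotein lipase, from 8.53 ± 1.69 to 15.2 ± 1.59, both dim. The defining markers Adipoq, Cidec (which fell) and Lep had means between 2.33 and 4.72 in both groups. Summed signal of the 6 markers measured was 42.4 to 49.05 in wild type and 721 to 739 in knockout, nearly all of it Fabp4. Its part in the fatty acid results was not tested.

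**Figure D3:**
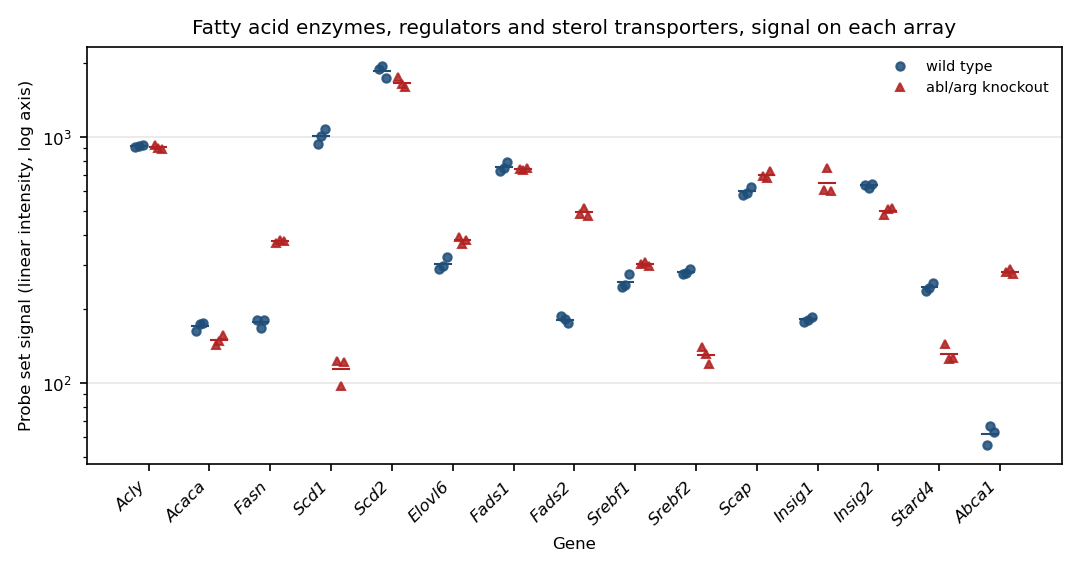
Probe set signal (linear intensity on a log axis) of the 8 fatty acid enzymes and the 7 regulators and sterol transporters on each of the 3 wild-type (circles) and 3 knockout (triangles) arrays, with dashes at group means (n = 3). Scd1, Srebf2 and Stard4 are lower and Fasn, Fads2, Insig1 and Abca1 higher in every knockout array; heights of different genes are not comparable.

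The 7 regulators and transporters all passed as deposited, 4 upward and 3 downward, where 59.7% of all genes and 82.3% of genes that are not dim passed. On hybridization spikes 2 rose and 3 fell. Srebf2, the gene of SREBP2, had 276, 279.6 and 289.8 in wild type and 139, 131 and 119.6 in knockout (-1.03 ± 0.06, SE; limma adjusted p = 7.86e-09). Its other probe set fell by less, from 205 ± 15.3 to 167 ± 6.39 (SD, n = 3 each; -0.27). Srebf1, the gene of SREBP1, had 245, 250.4 and 277 against 305, 309 and 297 (0.23; limma adjusted p = 0.00243), but the difference came to -0.02 on the hybridization spikes and to 0.01 after each chromosome was centred, so it has no firm direction. Scap, the sterol-sensing escort, rose by 0.22, or -0.04 under hybridization spike scaling (adjusted p = 0.548).

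The INSIG genes differed in direction on the signals as deposited. Insig1, whose transcription SREBPs induce, had 177, 181 and 186 in wild type and 607, 744 and 599 in knockout, 3.59-fold apart (1.75 ± 0.07, SE; limma adjusted p = 3.31e-10), with knockout replicate 2 the highest and no overlap. Insig2, the form less dependent on SREBPs, had 637, 619 and 644 against 483, 506 and 513 (-0.33), which was 0.13 under poly-A spike scaling (adjusted p = 0.176). A nearly as bright Insig2 probe set did not pass (532 ± 16.8 to 498 ± 7.68, SD, n = 3 each, limma adjusted p = 0.0851). The dimmest Insig2 probe set fell by 0.28.

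Sterol carriers also split. Stard4, a cytosolic carrier that moves cholesterol between membranes and is itself an SREBP2 target, had 237, 242 and 255 in wild type and 144, 125 and 126 in knockout (-0.82 ± 0.06, SE; limma adjusted p = 1.07e-07), and both other probe sets fell, by 1.61 and 0.57. Abca1, which exports cholesterol to apolipoproteins and is induced by the oxysterol receptors LXR, had 55.7, 66.9 and 63.4 against 281, 289.7 and 276, 4.55-fold apart (1.94 ± 0.07, SE; limma adjusted p = 5.67e-11). With probe sets averaged it was 0.85, since both other probe sets were near the floor.

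**Figure D4:**
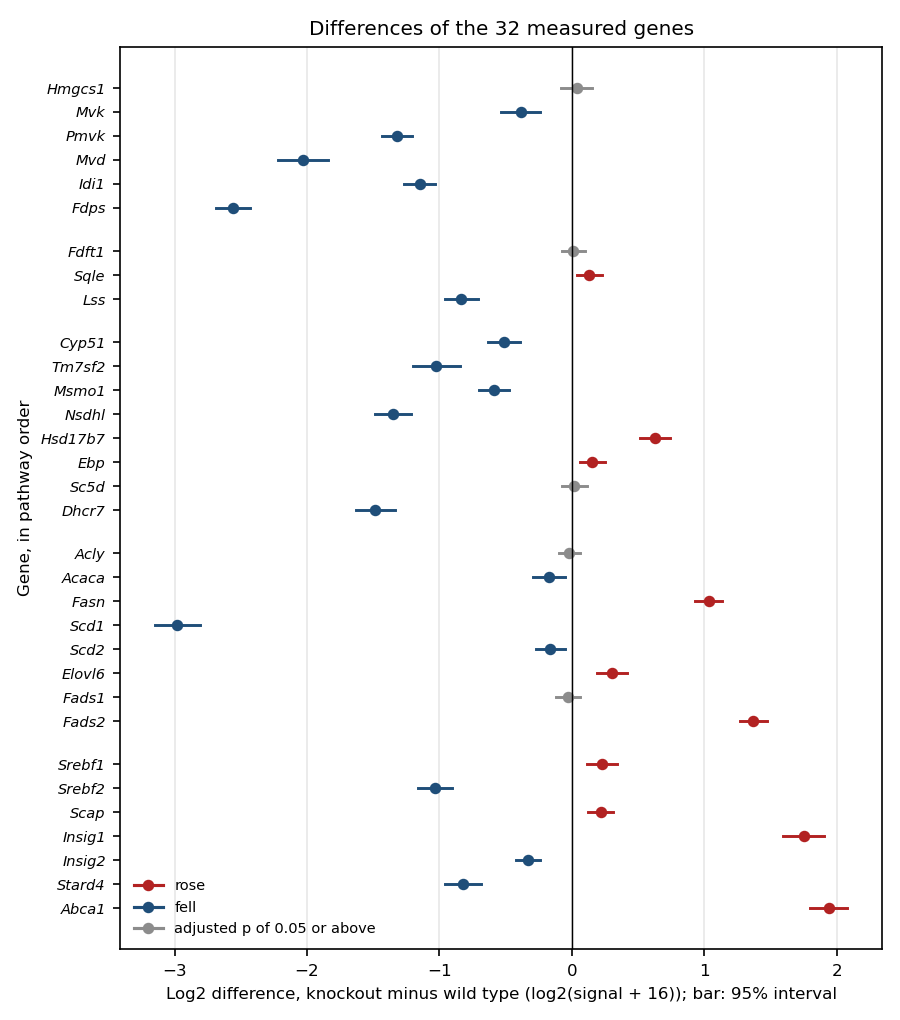
Difference between group means of log2(signal + 16), knockout minus wild type, for the 32 measured genes in pathway order, with bars for the 95% interval from limma and colour for genes that rose, fell or did not pass. The values run from -2.98 for Scd1 to 1.94 for Abca1, and the intervals of Hmgcs1, Fdft1, Sc5d, Acly and Fads1 hold 0.

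On some chromosomes the median difference of bright genes was shifted. Relative to all bright genes (mean log2 signal above 7), the median difference of bright genes was -0.65 on chromosome 4 (Abca1), -0.42 on chromosome 8 (Mvd, Msmo1), 0.42 on chromosome 13 (Hmgcs1, Idi1), 0.54 on chromosome 14 (Fdft1) and 0.31 on chromosome 10 (Lss). It was 0.33 on chromosome 18 (Stard4) and 0.22 on chromosome 11 (Acly, Acaca, Fasn, Srebf1). With each chromosome centred, Mvd was at -1.61, Msmo1 at -0.17 (from -0.59; limma adjusted p = 0.0137), Idi1 at -1.56, Lss at -1.15 and Abca1 at 2.58. Genes that are not bright, Tm7sf2 among them, were left as they were. Hmgcs1 and Fdft1 then fell, by 0.38 and 0.53 (limma adjusted p = 4.91e-05 and 1.72e-07), and 13 sterol enzymes fell in all. After the same centring Stard4 was at -1.15, and Acly passed as a fall at -0.24 (limma adjusted p = 9.74e-05).

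Other genes of lipid metabolism, listed by role, moved in both directions. Of 69 measured, 22 rose and 32 fell, 78.3% in all, against 59.7% of all genes and 82.3% of genes that are not dim. Of these, 14 and 18 kept their call under all alternatives that could be run. Under poly-A spike scaling 36 rose and 20 fell, and under hybridization spike scaling 15 rose and 44 fell. Among 13 genes of isoprenoid use and further sterol steps, 3 rose and 8 fell (median -0.27). Lbr, the lamin B receptor, which also has sterol reductase activity, fell from 1440.3 ± 59.4 to 437 ± 17.7 (SD, n = 3 each; -1.68), and Tmem97, a sterol-responsive membrane protein, by 0.80. Ggps1, which makes geranylgeranyl diphosphate from the product of Fdps, rose from 64.2 ± 1.25 to 162 ± 2.75 (1.15). Dhdds, of dolichol synthesis, fell by 1.23, or by 0.09 (limma adjusted p = 0.168) once probe sets with x, s or a suffixes were left out.

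Of 15 genes of sterol sensing and of LXR targets, 4 rose and 6 fell (median -0.01). Abcg1, the partner exporter of Abca1 and like it an LXR target, fell from 98.5 ± 2.17 to 8.55 ± 0.514 (SD, n = 3 each; -2.22). Mylip, the LXR-induced ubiquitin ligase of lipoprotein receptors, rose from 569 ± 18.0 to 2194 ± 33.2 (1.92), and Apoe, the apolipoprotein of cholesterol transport, rose from 11.7 ± 2.40 to 142 ± 20.1 (2.51). Since 1 group of each is near the floor, the log2 values of Abcg1 and Apoe depend on the offset: with 1 or 64 in place of 16 they were -3.38 or -1.16 and 3.51 or 1.44. The LXR alpha gene Nr1h3 had 17.4 and 16.6 near the floor and did not pass. Erlin1, part of the complex that hands sterol-regulated proteins to the proteasome, fell by 1.45.

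Genes of uptake and transport went both ways, 6 of 14 upward and 5 downward (median -0.02). Lrp1, a large lipoprotein receptor, rose from a mean of 130.2 to 727 (n = 3 each; 2.35), and Vldlr, the VLDL receptor, rose by 1.71. Scarb1, the HDL receptor SR-BI, fell from 331 ± 23.1 to 42.4 ± 2.76 (SD, n = 3 each; -2.57), and Lrp8, an apolipoprotein E receptor, by 1.45. Among 27 other fatty acid and lipid genes 9 rose and 13 fell (median -0.15): the acyl-CoA synthetase Acsl3 fell by 1.74, the acetyl-CoA synthetase Acss2 by 1.60 and the acyltransferase Agpat2 by 1.56, while the phosphatidate phosphatase Lpin1 rose by 1.38.

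**Figure D5:**
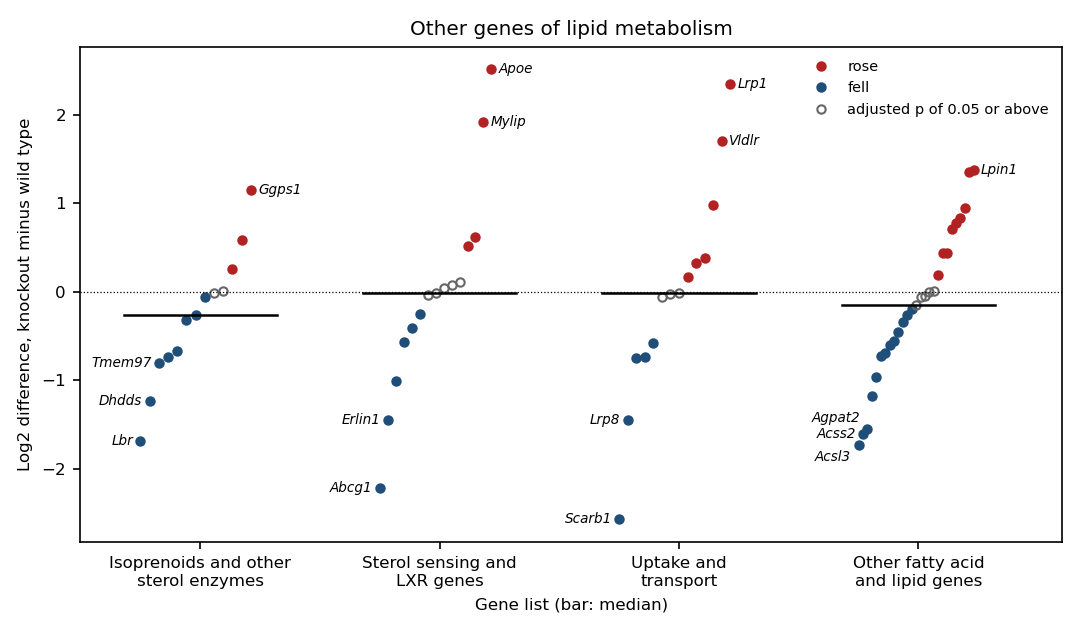
Log2 difference (knockout minus wild type) of each of the 69 other lipid genes in 4 lists, with filled points where limma's adjusted p was under 0.05 and a bar at each list median. Medians lie between -0.27 and -0.01, and at this offset of 16 single genes run from -2.57 (Scarb1) to 2.51 (Apoe).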

How the data were processed

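What the authors deposited is a table of linear intensity for each probe set on each array. MAS5 is named in the submitters' processing notes, with no version or scaling given in the sources used here. Trimmed means ran from 107.8 to 109.95 over the arrays, which may come from scaling and does not show that RNA amounts were alike. Groups came from the sample titles, 3 arrays each, and no column was left without a sample. Of 45101 probe sets, 64 were controls; the platform annotation gave 1 symbol for 34945, several for 932 (left out), and 9160 were unnamed here. Of the 34945, 34741 matched the RefSeq table of GRCm38.p6 by Entrez number. Genes were represented by the probe set with the highest mean log2(signal + 16). Knockout-minus-wild-type differences were tested in R 4.3.3 with limma 3.58.1 (lmFit and trended eBayes); two-sided p-values were adjusted over all 18193 genes by Benjamini-Hochberg; other probe sets were tested over all probe sets with 1 gene. Intervals are the fit's 95% intervals; fold values are ratios of mean signals, and log2 differences understate dim genes. A gene rose or fell where its adjusted p was under 0.05.

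The members and lists were chosen with earlier results of these data known; other pathway genes were listed by role, and the 4 largest differences past 0.05 per list are named. The alternatives were offsets 1 and 64, quantile, median, poly-A and hybridization spike scaling, dim genes left out, probe sets averaged, probe sets with x, s or a suffixes left out (these can match several transcripts), robust or untrended eBayes, a replicate block, chromosomes centred, and each array left out. The fit was tested on simulated data. Figures were drawn with matplotlib 3.10.9.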

Additional observations from a re-analysis of the deposited data

How the results depend on the processing

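Of 19 alternatives, offsets 1 and 64, leaving out dim genes, both other variance models and the replicate block changed no call among the 32 members. The groups share replicate numbers, but same-numbered arrays deviated together only weakly (r = 0.0384, 0.114 and 0.165 across genes, each the highest of its array), so the numbers were not taken as pairs; with the replicate block 4458 genes rose and 6477 fell, against 4411 and 6455, and 31 other pathway genes fell and 21 rose. Counts depended on scaling. Rising sterol enzymes numbered 1 with median centring, 6 with poly-A and 1 with hybridization spikes. Fatty acid enzymes that rose numbered 7 with poly-A spikes; those that fell numbered 5, 1 and 5 in the same order, and 1 with probe sets averaged. Regulators that rose numbered 2 with hybridization spikes. Other pathway genes that rose and fell numbered 36 and 20 with poly-A spikes and 15 and 44 with hybridization spikes. Over all genes, 9767 rose and 3004 fell with poly-A spikes and 3033 and 10728 with hybridization spikes. Leaving out each array in turn gave 1 to 3 falling fatty acid enzymes and 2 to 3 rising sterol enzymes.

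The sign of a difference changed as follows, for genes that passed as deposited, under the alternative or under both. With poly-A spikes, Mvk was at 0.017, Acly at 0.45, Acaca at 0.26, Scd2 at 0.31, Fads1 at 0.43 and Insig2 at 0.13. With hybridization spikes, Hmgcs1 was at -0.22, Fdft1 at -0.25, Sqle at -0.13, Ebp at -0.11, Sc5d at -0.23, Srebf1 at -0.023 and Scap at -0.040. With chromosomes centred, Hmgcs1 was at -0.38 and Fdft1 at -0.53. With x, s and a probe sets left out, Hmgcs1 was at -0.33 and Msmo1 at 0.17, where a dim probe set stood in; Pmvk and Srebf1 had no value there. With probe sets averaged, Fads1 was at 0.44. After their change of sign, Mvk, Insig2, Sqle, Ebp, Srebf1 and Scap did not pass. Hmgcs1, Fdft1, Sc5d, Acly and Fads1 had not passed as deposited. Without a change of sign, Hmgcs1, Fdft1 and Sc5d passed as rises on poly-A spikes, at 0.50, 0.47 and 0.47. The number of arrays, 3 a group, limits the precision.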

Other observations

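Among the other lipid genes, 6 that concern the supply of acetyl-CoA and NADPH, chain elongation and SREBP release were chosen after their values were seen. Slc25a1, the mitochondrial citrate carrier, which feeds cytosolic acetyl-CoA, fell by 0.70 on the log2 scale, from a mean signal of 572 ± 40.9 to 347 ± 7.59 (SD, n = 3 each). Me1, malic enzyme, rose from 590.0 ± 7.36 to 1068 ± 72.4 (0.84), and Pgd, of the pentose phosphate pathway, from 369 ± 14.6 to 645 ± 7.22 (0.78). The elongases Elovl5 and Elovl1 differed in direction. Elovl5, which elongates polyunsaturated acids after Fads2, rose from 1529.7 ± 68.6 to 3941 ± 131 (1.36), and Elovl1, which acts on saturated chains, fell from 682 ± 18.2 to 342 ± 7.24 (-0.96). Mbtps2, a protease that releases active SREBP, fell by 1.01. All 6 had a limma adjusted p under 0.05 over all genes and kept their call and direction under all alternatives that could be run for them. Because of how they were chosen, that is no separate support. Of the 69 other lipid genes, 78.3% passed. Of the 22 that rose 14 kept their call, and of the 32 that fell 18 did. Mbtps1, Elovl4, Elovl7 and Mid1ip1 passed but did not keep theirs.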
